A study of Mus musculus with 4 samples.

Results

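CD8+CX3CR1+ dendritic cells (DCs) of the mouse spleen were compared with DN DCs of the same organ, on 1 whole-genome Affymetrix array each, out of 4 arrays in the series. The arrays were chosen by sample title, and the comparison covers all 34945 probe sets that carry a single gene symbol, which stand for 18193 genes. DN, in this field, is the usual short form for cells with neither CD4 nor CD8. All 4 subsets, which also include CD8+CX3CR1- and CD4+ DCs, came from spleens of Cx3cr1gfp/+ mice on the C57BL/6 background, in which a green fluorescent protein gene marks cells that use the Cx3cr1 promoter and leaves 1 intact copy of Cx3cr1. No array was labelled as treated with BMP4. CD11c+ cells were enriched with magnetic beads after collagenase D digestion, and cells with high CD11c were sorted. The labels do not state the age and number of the mice, any pooling or the gates.

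DCs take up antigen and present it to T cells. In the mouse spleen the classical CD8+ DCs are known for cross-presentation and depend on the transcription factors Batf3 and Irf8. The CD11b+ DCs, among them CD4+ and DN cells, depend more on Irf4 and Notch2 and are known for presentation by MHC class II. Plasmacytoid DCs, the type I interferon producers, depend on Tcf4, which encodes the E protein E2-2.

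Values are MAS5 signals on a linear scale. A signal under 55.7, the 90th percentile of 127 background probe sets (keratin-associated proteins of hair and receptors for smell and taste), was raised to that floor, and a fold against a floored value is given as a bound. The same percentile was 46.9 for CD8+CX3CR1+ alone and 52.8 for DN alone, so both lay under the floor. The number of arrays limits the precision: with 1 array per subset there is no spread between replicates, no test and no p-value, and every difference describes 2 arrays. Differences are CD8+CX3CR1+ minus DN on the log2 scale, and a gene was called at a difference of 2 (4-fold) or more in size.

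The sort markers were as follows. Cd8a, the alpha chain of the CD8 coreceptor, had 2530.2 in CD8+CX3CR1+ cells against 129.5 in DN cells. It had 4742 in CD8+CX3CR1- and less than 55.7 in CD4+ cells. Cx3cr1, the receptor for fractalkine, had 894 in CD8+CX3CR1+ cells against 258 in DN cells, and its difference of 3.46-fold was smaller than 4-fold. Cd4 was level at 93.3 in CD8+CX3CR1+ cells and 93.9 in DN cells, and reached 564 on the CD4+ array. The cell type field in the labels reads CD4+ for the DN array and CD8+CX3CR1+ for the CD8+CX3CR1- array, against their titles. The low Cd4 signal of the first and the low Cx3cr1 signal of the second (97.3) go with the titles. Of the markers shared by spleen DCs, Itgax, the CD11c chain, had 4399 in CD8+CX3CR1+ cells against 4042 in DN cells. Zbtb46, a transcription factor of classical DCs, had 288 in CD8+CX3CR1+ cells against 339.9 in DN cells. Itgam, the CD11b chain often used to mark DN DCs, had less than 55.7 in CD8+CX3CR1+ cells against 65.1 in DN cells. Sirpa, a surface marker of the same cells, had 731 in CD8+CX3CR1+ cells against 687 in DN cells. Cd8a and Cx3cr1 transcripts follow from the sort and are not read as results.

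Most genes differed little. Of the 12608 genes above the floor on at least 1 of the 4 arrays, 8644 lay above it on both arrays compared, 967 on the CD8+CX3CR1+ array but not the DN array, 1068 on the DN array but not the CD8+CX3CR1+ array, and 1929 on neither. Over the 8644 genes the median log2 difference was 0.02, the quartiles were -0.27 and 0.32, and 93.6% lay within 2-fold. At 4-fold, 35 genes (0.278% of those tested) were higher and 17 (0.135%) were lower on the CD8+CX3CR1+ array. At 2-fold the counts were 375 higher (2.97%) and 370 lower (2.93%). Counted by probe set, 57 named probe sets were higher by 4-fold or more and 30 lower. The calls lay at modest signals. Of the 52 called genes 25 had a geometric mean signal between 100 and 200 on the pair of arrays, where the standard deviation of the log2 difference over 1990 genes was 0.685. Above 3000 none of 378 genes was called, and the standard deviation was 0.303.

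**Figure D1:**
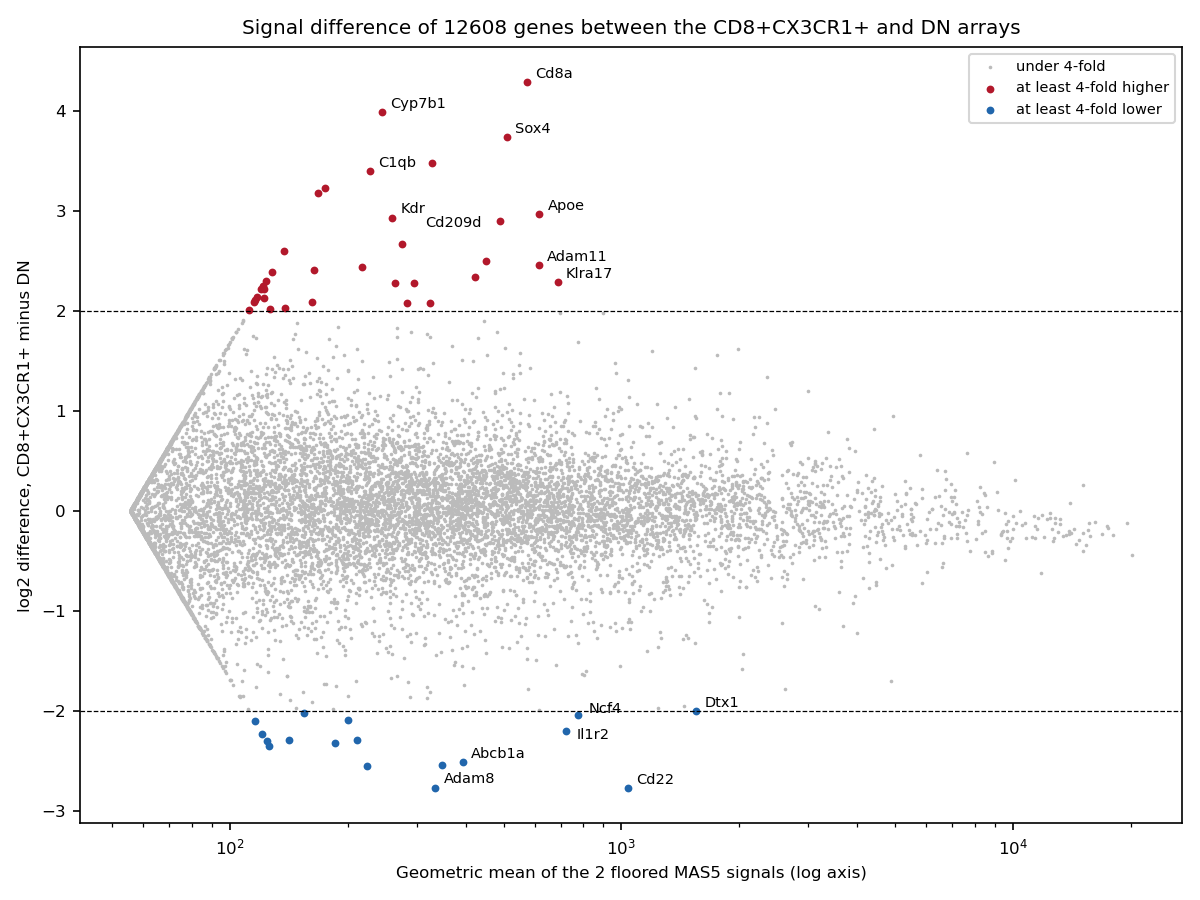
Log2 difference (CD8+CX3CR1+ minus DN, vertical axis) against the geometric mean of the 2 floored MAS5 signals (horizontal log axis) for 12608 genes, each a point, with dashed lines at 4-fold. The 35 called genes above and the 17 below the lines lie among genes of low and middle signal, and the diagonal edges at the left are genes with 1 value at the floor.

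A technical difference between the arrays bears on every sign given here. The 9 probe sets for the BioB, BioC, BioDn and CreX hybridisation controls, transcripts that the standard protocol adds to each sample, all had less signal in the CD8+CX3CR1+ sample (log2 difference -0.74 to -0.41). Scaling to these controls, an alternative chosen after the data were seen, moved the median difference of genes above the floor on both arrays to 0.60. The split of calls was then 98 higher and 2 lower, against 35 and 17. All 35 genes called higher stayed called, and 2 of the 17 called lower did. The controls had a mean log2 difference of -0.61, and removing it raises all differences above the floor by the same amount. That shift favours higher calls and works against lower ones, so these counts do not compare their stability. Differences below are therefore relative to the average gene of each array, and their size relative to cell number or total RNA cannot be read from them. The 3'/5' signal ratios of the control probe sets, which rise as RNA integrity falls, were 8.98 in CD8+CX3CR1+ cells and 7.56 in DN cells for Gapdh. They were 2.32 in CD8+CX3CR1+ cells and 2.23 in DN cells for beta-actin.

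Of the genes called higher, Cyp7b1 and Apoe act on sterols or lipoproteins. Cyp7b1, a hydroxylase that acts on oxysterols, had 974 in CD8+CX3CR1+ cells against 61.3 in DN cells, a 15.9-fold difference. It had less than 55.7 in CD8+CX3CR1- and 94.9 in CD4+ cells. Its second measured probe set gave a log2 difference of 3.91 beside the 3.99 of the one used. Gpr183, an oxysterol receptor gene named here after its value was seen, had 2689.5 in CD8+CX3CR1+ cells against 1190.2 in DN cells (2.26-fold higher). Apoe, the lipoprotein that carries cholesterol and binds the LDL receptor family, had 1726 in CD8+CX3CR1+ cells against 221 in DN cells (7.83-fold higher). The CD4+ array, at 1397, was nearer to the CD8+CX3CR1+ value and the CD8+CX3CR1- array had 523. The cholesterol exporter Abca1 had 151 in CD8+CX3CR1+ cells against less than 55.7 in DN cells (at least 2.72-fold higher). Lpl, lipoprotein lipase, had 297 in CD8+CX3CR1+ cells against 118 in DN cells (2.51-fold higher). The median of the cholesterol and lipid metabolism list was -0.18 (0.36 when scaled to the hybridisation controls). Of its 35 detected members 3 were 2-fold higher or more (against 2.97% of all genes tested) and 3 lower (against 2.93%). Those lower were Naaa (772 in CD8+CX3CR1+, 1985 in DN), an acid amidase, Ptgs2, the inducible prostaglandin synthase (78.8 in CD8+CX3CR1+, 248 in DN), and the phospholipid transfer protein gene Pltp (63.1 in CD8+CX3CR1+, 127 in DN).

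Complement genes were also higher. C1qb, a chain of the C1q molecule that tags dying cells and immune complexes, had 742 in CD8+CX3CR1+ cells against 70.2 in DN cells (10.6-fold higher). Its other probe sets gave log2 differences of 1.05 and 2.39. The other chains lay under the floor on the DN array, with C1qa at 197 and C1qc at 185 on the CD8+CX3CR1+ array (at least 3.53-fold and at least 3.33-fold higher). On the CD4+ array all chains were measured, at 358 for C1qb, 203 for C1qa and 206 for C1qc. C1q is made by macrophages. In the red pulp macrophage list 7 of 17 detected genes were 2-fold higher or more (against 2.97% of all genes tested) and 1 lower (against 2.93%). Besides the C1q chains, those higher were Fcna, a ficolin (193 in CD8+CX3CR1+, less than 55.7 in DN), Cd5l (177 in CD8+CX3CR1+, less than 55.7 in DN), the apoptotic cell receptor Mertk (165 in CD8+CX3CR1+, less than 55.7 in DN) and the adhesion molecule Vcam1 (291 in CD8+CX3CR1+, 109 in DN). In contrast Adgre1, which encodes the F4/80 antigen of macrophages, had 578 in CD8+CX3CR1+ cells against 1692 in DN cells (2.93-fold lower). Cd68 had 1695 in CD8+CX3CR1+ cells against 2324 in DN cells, and Hmox1, Axl and Cd163 lay under the floor on both. The red pulp transcription factor gene Spic had 56.9 in CD8+CX3CR1+ cells against 79.6 in DN cells. Above the floor were 13 of the list's genes in CD8+CX3CR1+ cells and 9 in DN cells. The summed signals were 5095 in CD8+CX3CR1+ cells and 5254 in DN cells. The list median was 0.07, with 0.00 to 1.41 under other settings and 0.71 when scaled to the hybridisation controls. In sorted cells studied in bulk, a few cells with much of an RNA and many cells with little of it cannot be told apart, and the part of macrophages in these values was not tested.

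Of the 6 detected lectin genes of the DC-SIGN family, Cd209d and Cd209e were called higher. Cd209d, also known as SIGNR3, had 1336 in CD8+CX3CR1+ cells against 179 in DN cells (7.46-fold higher). Cd209e, or SIGNR4, had 951 in CD8+CX3CR1+ cells against 188 in DN cells (5.07-fold higher). On the remaining arrays Cd209d had less than 55.7 in CD8+CX3CR1- and 69.2 in CD4+ cells, and Cd209e was under the floor on both. These genes are close paralogs, so probes of 1 may bind transcripts of another. Cd209a, the family member usually read as DC-SIGN in mouse cells, differed by 1.30-fold (996 in CD8+CX3CR1+, 768 in DN). Cd209c was 2.28-fold higher (415 in CD8+CX3CR1+, 182 in DN), Cd209b was lower (less than 55.7 in CD8+CX3CR1+, 82 in DN), and Cd209f was under the floor on both. Of 25 detected members of the C-type lectin list, 2 were 4-fold higher or more (against 0.278% of all genes tested). In all, 6 were 2-fold higher or more (against 2.97% of all genes tested) and 1 was 2-fold lower (against 2.93%). The 6 include Siglech, given below, which is not a C-type lectin. The median was 0.31, with 0.26 to 0.38 under other settings and 0.70 when scaled to the hybridisation controls. Among them were the mannose receptor gene Mrc1 (189 in CD8+CX3CR1+, 63.8 in DN) on the higher side and Clec4a2, an inhibitory DCIR-family receptor (498 in CD8+CX3CR1+, 1175 in DN), on the lower side. Klra17, which encodes the Ly49Q receptor known from plasmacytoid DCs, had 1519 in CD8+CX3CR1+ cells against 311 in DN cells (4.88-fold higher). Klrb1f, of the NKR-P1 receptor family, had 76.8 in CD8+CX3CR1+ cells against 313 in DN cells (4.07-fold lower), although its second probe set differed by -0.06.

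Among the genes of lymphoid and plasmacytoid development given here, Sox4 and Blnk were called higher, and the others differed by less than 4-fold. Sox4, an HMG-box transcription factor of early lymphocytes, had 1863 in CD8+CX3CR1+ cells against 139 in DN cells (13.4-fold higher) and 121 on the CD4+ array. Of its 5 other measured probe sets all were higher, by 0.34 to 3.47, the smallest being those of low signal. Averaged over all its probe sets the log2 difference was 1.60, under the threshold. Blnk, an adaptor of B cell receptor signalling also present in plasmacytoid DCs, had 334 in CD8+CX3CR1+ cells against 78.8 in DN cells (4.24-fold higher). Tcf4 had 3489 in CD8+CX3CR1+ cells against 1135 in DN cells (3.07-fold higher). It had 269.5 in CD8+CX3CR1- and 470.0 in CD4+ cells. Spib, an Ets-family partner in plasmacytoid DC development, was 2.21-fold higher (1556 in CD8+CX3CR1+, 704 in DN). Runx1, a regulator of blood progenitors, was 2.98-fold higher (949 in CD8+CX3CR1+, 318 in DN). In the B-lineage and recombination list 5 of 12 detected members were 2-fold higher or more (against 2.97% of all genes tested) and 0 were lower (against 2.93%). The median was 0.64 and ran from 0.42 to 0.97 under other settings, and it was 1.04 when scaled to the hybridisation controls. Besides Sox4 and Blnk they were Cd79b, a signalling chain of the B cell receptor (593 in CD8+CX3CR1+, 178 in DN), the transcriptional repressor gene Bach2 (553 in CD8+CX3CR1+, 198 in DN) and the interleukin 7 receptor gene Il7r (559 in CD8+CX3CR1+, 259 in DN). The transcripts of the recombinase itself were low. Rag2 had 64.7 in CD8+CX3CR1+ cells against 76.1 in DN cells, and Rag1 and Dntt were above the floor on no array.

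The plasmacytoid DC list had 8 of 25 detected members higher by 2-fold or more (2.97% of all genes tested) and 1 lower, with a median of 0.37 (0.31 to 0.54 under other settings, and 0.96 when scaled to the hybridisation controls). Beyond Klra17, Blnk, Tcf4 and Spib, those higher included Siglech, a defining surface receptor of these cells (206 in CD8+CX3CR1+, less than 55.7 in DN). The others were Bst2, the tetherin gene (659.5 in CD8+CX3CR1+, 232 in DN), the receptor phosphatase gene Ptprs (959 in CD8+CX3CR1+, 356 in DN) and Klk1 (249 in CD8+CX3CR1+, 124 in DN). Pltp, given above, was the member lower by 2-fold. Of the members less than 2-fold apart, the chemokine receptor gene Ccr9 had 328 in CD8+CX3CR1+ cells against 192 in DN cells. Irf7, a driver of interferon production, had 302 in CD8+CX3CR1+ cells against 328 in DN cells. Bcl11a had 1272 in CD8+CX3CR1+ cells against 877 in DN cells, and Tlr9 and Pacsin1 lay under the floor on both. Summed over the list, the signal was 12693 in CD8+CX3CR1+ cells and 6019 in DN cells.

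B cell and plasma cell transcripts differed in both directions. Igha, the constant region of IgA heavy chains, had 694 in CD8+CX3CR1+ cells against 109 in DN cells (6.36-fold higher), and its other probe sets gave log2 differences of 1.94 and 3.34. Of the 5 plasma cell genes detected, none was 2-fold apart. Of them 4 lay above the floor in CD8+CX3CR1+ cells and 3 in DN cells. Summed over the 6 plasma cell genes on the platform, the signals were 2116 in CD8+CX3CR1+ cells and 2192 in DN cells. Most of either sum is Xbp1 (1754 in CD8+CX3CR1+, 1931 in DN). Jchain (162 in CD8+CX3CR1+, 90.5 in DN) and Mzb1 (103.5 in CD8+CX3CR1+, less than 55.7 in DN) were higher. Prdm1 was lower (70.5 in CD8+CX3CR1+, 83.7 in DN), and Tnfrsf17 was under the floor on both. Ms4a1, which encodes CD20, had 361 in CD8+CX3CR1+ cells against 162 in DN cells, while Blk, a kinase of B cells, was under the floor in CD8+CX3CR1+ cells and had 115 on the DN array. Pax5 was under the floor on both. The 10 B cell genes on the platform, of which 8 were detected, summed to 1614 in CD8+CX3CR1+ cells and 3331 in DN cells. On the DN array that sum is mostly Cd22. The part of B-lineage cells in these values was not tested.

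Receptors and matrix proteins accounted for other large differences. Kdr, the VEGF receptor 2, had 717 in CD8+CX3CR1+ cells against 93.8 in DN cells (7.64-fold higher). Lefty1, a secreted antagonist of Nodal, had 503 in CD8+CX3CR1+ cells against less than 55.7 in DN cells (at least 9.04-fold higher). Timp2, an inhibitor of metalloproteinases, had 538 in CD8+CX3CR1+ cells against 57.1 in DN cells (9.42-fold higher), and its other measured probe sets gave log2 differences of 2.52 and 0.02. Plvap, a protein of endothelial fenestrae, had 224 in CD8+CX3CR1+ cells against less than 55.7 in DN cells. Because Kdr and Plvap are known from endothelium, a list of endothelial and stromal genes was added after these values were seen. Of its 13 detected members 2 were at least 2-fold higher (against 2.97% of all genes tested) and 2 lower (against 2.93%). Those higher were Kdr and Plvap, which prompted the list, so that count was fixed in advance. No other detected member was 2-fold higher. The lower ones were Esam (167 in CD8+CX3CR1+, 464 in DN) and Vwf (less than 55.7 in CD8+CX3CR1+, 117 in DN). Above the floor were 3 members in CD8+CX3CR1+ cells and 8 in DN cells. Summed over all 20 members on the platform, the signals were 1561 in CD8+CX3CR1+ cells and 1242 in DN cells. Cdh5, the defining cadherin of endothelium, had less than 55.7 in CD8+CX3CR1+ cells against 56.4 in DN cells. Notch1 had 256 in CD8+CX3CR1+ cells against 58.4 in DN cells (4.39-fold higher), so that its DN signal lay close to the floor. Ccr1, a receptor for inflammatory chemokines, had 274 in CD8+CX3CR1+ cells against less than 55.7 in DN cells (at least 4.92-fold higher), with both remaining arrays under the floor.

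The remaining genes called higher were mostly dim on the DN array. Snx18, a sorting nexin of endosomes, had 1071 in CD8+CX3CR1+ cells against 189 in DN cells. Adam11, a member of the ADAM family without protease activity, had 1441 in CD8+CX3CR1+ cells against 263 in DN cells. Rab11fip5, an effector of recycling endosomes, had 669 in CD8+CX3CR1+ cells against 158 in DN cells. The adaptor gene Dab2, which acts in clathrin-mediated uptake, had 583 in CD8+CX3CR1+ cells against 138 in DN cells. Between 4-fold and 6-fold higher were also Ptprf, a receptor tyrosine phosphatase (378 in CD8+CX3CR1+, 71 in DN), Pdzd4 (506 in CD8+CX3CR1+, 93.4 in DN), Rhbdf1, an inactive rhomboid (583 in CD8+CX3CR1+, 119.8 in DN), and the membrane glycoprotein gene Gpm6b (652 in CD8+CX3CR1+, 134 in DN). The same range held Mrvi1 (263 in CD8+CX3CR1+, 56.5 in DN), Arhgap32 (279.6 in CD8+CX3CR1+, 68.5 in DN), and Ift172, of intraflagellar transport (255 in CD8+CX3CR1+, 62.7 in DN). With a DN signal under the floor, Xkrx was at least 6.07-fold higher (338), Akap10 at least 5.26-fold (293), Septin4 at least 4.75-fold (265), and the ferroxidase gene Cp at least 4.66-fold (259.7). Likewise Tex264, a receptor for ER autophagy, was at least 4.42-fold (246), Zfp771 at least 4.31-fold (240.3), and the anion channel gene Best1 at least 4.27-fold (238). Cd151, a tetraspanin, had 1100.1 in CD8+CX3CR1+ cells against 98.4 in DN cells. This rests on 1 probe set of a kind prone to cross-hybridisation, and the 4 other measured probe sets of Cd151 gave log2 differences of -0.37 to 1.53. For other genes of this paragraph the second measured probe set gave 2.61 (Ptprf), 2.11 (Snx18), 1.74 (Rab11fip5) and 1.36 (Adam11). It gave 0.37 for Dab2, 0.36 for Septin4, 0.12 for Akap10, 0.10 for Mrvi1 and -0.16 for Zfp771. The other measured probe sets gave 0.55 and 1.96 for Gpm6b, and 0.73 and 2.42 for Cp.

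**Figure D2:**
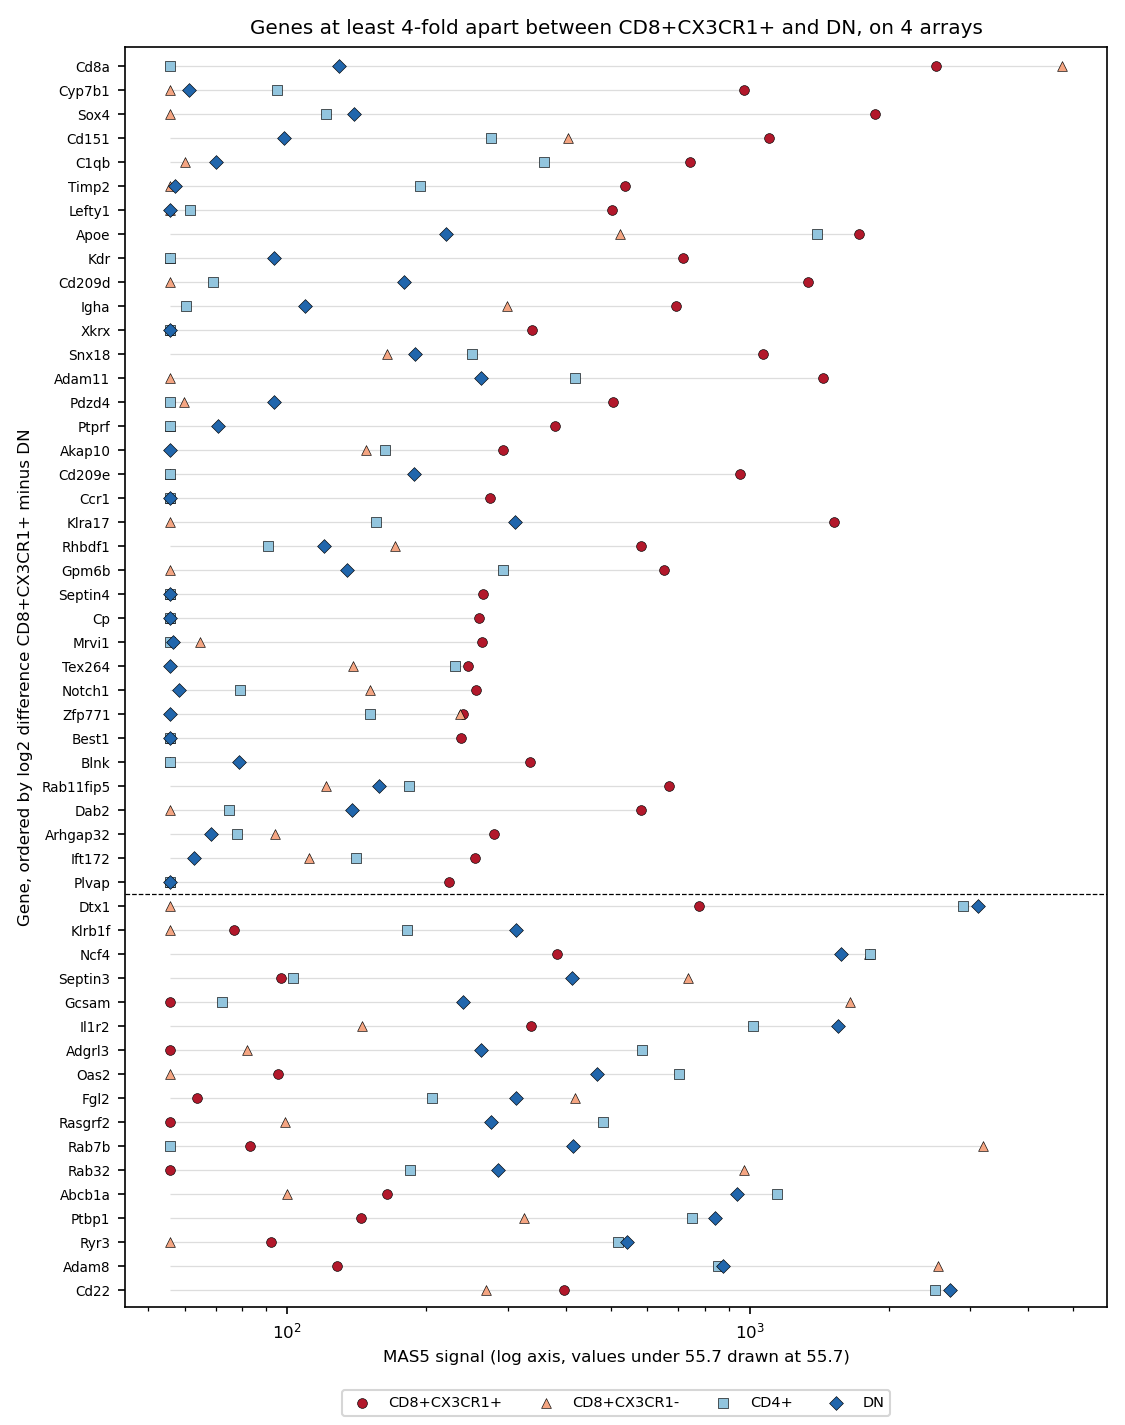
MAS5 signal (horizontal log axis, values under 55.7 drawn at 55.7) of the 52 called genes on the 4 arrays, 1 row a gene, with the 35 higher genes above the dashed line and the 17 lower ones under it. For Cyp7b1, Sox4 and Cd209d the CD8+CX3CR1+ point stands to the right of the other 3, whereas for Rab7b and Gcsam the CD8+CX3CR1- point does.

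Among the 17 genes called lower, the brightest was Dtx1. Dtx1, a Notch target that encodes a ubiquitin ligase, had 776 in CD8+CX3CR1+ cells against 3111 in DN cells (4.01-fold lower), on the edge of the threshold. It had less than 55.7 in CD8+CX3CR1- and 2895 in CD4+ cells. The related gene Dtx4 had 284 in CD8+CX3CR1+ cells against 77.3 in DN cells. In the list of Notch receptors and targets 2 of 14 detected members were 2-fold higher or more (against 2.97% of all genes tested) and 1 lower (against 2.93%). Cd22, a sialic acid-binding inhibitory receptor best known on B cells, had 396 in CD8+CX3CR1+ cells against 2713 in DN cells (6.84-fold lower) and 2513 on the CD4+ array. Its second probe set differed by -1.59. Il1r2, the decoy receptor for interleukin 1, had 336 in CD8+CX3CR1+ cells against 1549.8 in DN cells (4.61-fold lower). The interleukin 1 beta gene Il1b had 1740.4 in CD8+CX3CR1+ cells against 3797 in DN cells (2.18-fold lower). Adam8, a metalloprotease of leukocytes, had 128 in CD8+CX3CR1+ cells against 875 in DN cells (6.82-fold lower). Abcb1a, the P-glycoprotein drug pump, had 164 in CD8+CX3CR1+ cells against 940.0 in DN cells (5.72-fold lower). Ncf4, the p40phox subunit of the phagocyte oxidase, had 382 in CD8+CX3CR1+ cells against 1573 in DN cells (4.11-fold lower).

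Other genes called lower were Rab7b (82.9 in CD8+CX3CR1+, 415 in DN) and Rab32 (less than 55.7 in CD8+CX3CR1+, 285 in DN), small GTPases of endosomes and lysosome-related organelles. Gcsam, a signalling protein of germinal centre B cells, had less than 55.7 in CD8+CX3CR1+ cells against 239.5 in DN cells. These 3 were brightest on the CD8+CX3CR1- array, at 3191, 971 and 1649.8 in the same order. Fgl2, a fibrinogen-like protein with immunoregulatory roles, had 63.7 in CD8+CX3CR1+ cells against 313 in DN cells. Ryr3, a calcium release channel, had 92.2 in CD8+CX3CR1+ cells against 543 in DN cells, and Septin3 had 96.8 in CD8+CX3CR1+ cells against 413 in DN cells. Rasgrf2, an exchange factor for Ras, was at least 4.95-fold lower and Adgrl3, an adhesion receptor of the latrophilin family, at least 4.72-fold lower, each with its CD8+CX3CR1+ signal under the floor and a DN signal of 276 and 263 in the same order. Adgrl3 rests on 1 of its 6 probe sets, again of the cross-hybridising kind. Ptbp1, a splicing regulator, had 144 in CD8+CX3CR1+ cells against 843 in DN cells at the probe set used, while its 2 others gave -0.34 and -0.09.

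Agreement between probe sets of a gene was the only internal measure of error, and it covers probe behaviour rather than mice or sorts. Over 4540 genes with at least 2 probe sets above the floor on either array, the standard deviation of the log2 difference had a median of 0.32 and a root mean square of 0.46. Of the 18 genes called higher that had another measured probe set, 16 had every other one above 0 and 8 had every other one at least 2-fold higher. All 8 genes called lower with such a probe set had every other one below 0, and 4 had every other one at least 2-fold lower. Of the 35 genes called higher, 14 were called under each of the 8 other settings that gave them a value, scaling to the hybridisation controls not counted: Cd8a, Cyp7b1, C1qb, Lefty1, Apoe, Kdr, Cd209d, Igha, Xkrx, Snx18, Cd209e, Klra17, Rhbdf1 and Blnk. For Apoe, Cd209d and Igha that was 7 of the 8, since each of their probe sets is of a kind that can match several transcripts. Of the 17 genes called lower, Cd22, Adam8, Fgl2, Oas2 and Il1r2 were called under the same 8 settings. Scaled to the hybridisation controls, Cd22 (log2 difference -2.17) and Adam8 (-2.16) stayed past the threshold, and Fgl2 (-1.69), Oas2 (-1.69) and Il1r2 (-1.60) did not. The mean over all probe sets of a gene left 18 calls higher and 8 lower.

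**Figure D3:**
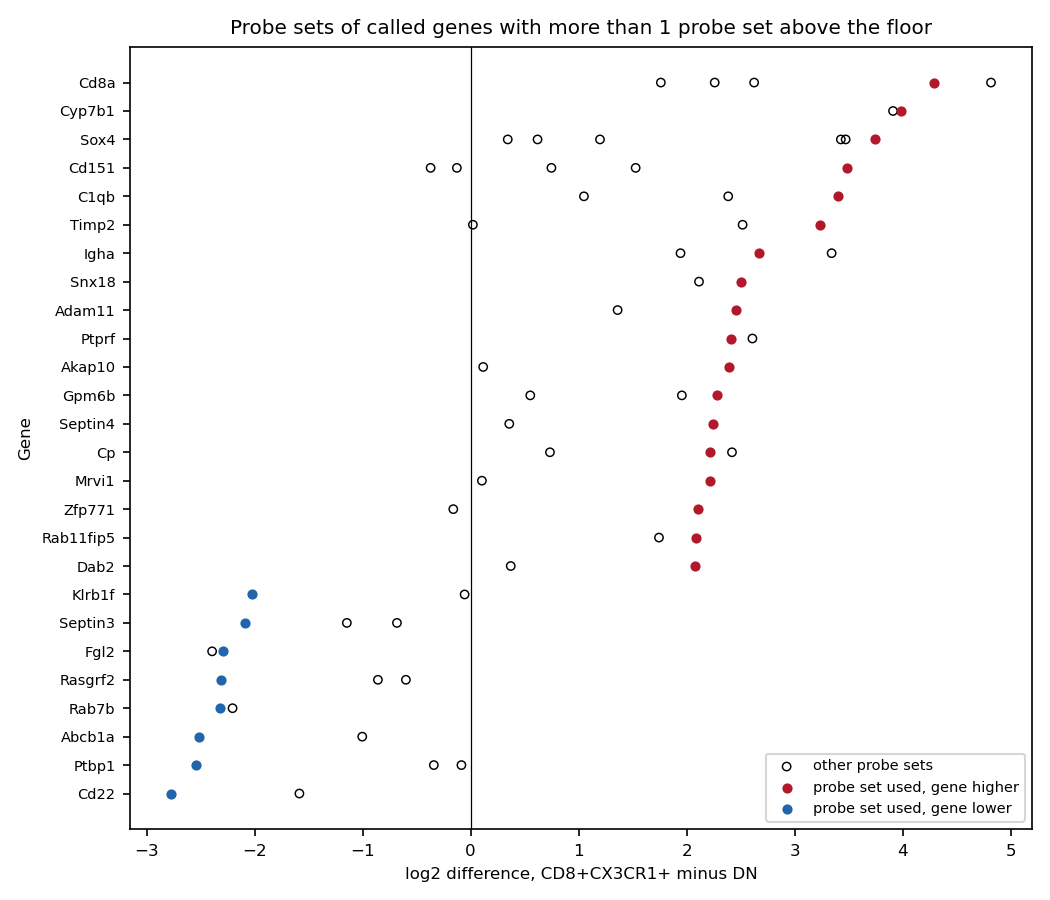
Log2 difference (CD8+CX3CR1+ minus DN, horizontal axis) of each probe set of the 26 called genes with more than 1 probe set above the floor, filled for the probe set used and open for the others. The open points of Cyp7b1 and Snx18 lie near the filled ones, and those of Zfp771 and Ptbp1 lie near 0.

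Promoters of 5 called genes are given because Tcf4, whose product binds E-boxes, was among the higher transcripts. Each is the 250 bases before the start of the gene in RefSeq (GRCm38.p6), 5′ to 3′ on the gene's strand. They belong to the 3 higher and 2 lower genes with the largest differences, Cd8a aside, that had both signals above the floor, a window in the promoter table and a call under all other settings but at most 1. Capitals mark the E-box CANNTG, searched on 1 strand because its reverse complement has the same form, with overlaps counted.
Sox4 (chr13:28953700-28953949, minus strand): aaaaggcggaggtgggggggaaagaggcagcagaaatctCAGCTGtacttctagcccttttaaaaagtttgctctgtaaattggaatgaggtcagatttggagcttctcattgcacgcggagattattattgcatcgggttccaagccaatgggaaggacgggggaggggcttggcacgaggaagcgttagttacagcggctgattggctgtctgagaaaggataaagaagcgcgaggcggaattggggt
C1qb (chr4:136886201-136886450, minus strand): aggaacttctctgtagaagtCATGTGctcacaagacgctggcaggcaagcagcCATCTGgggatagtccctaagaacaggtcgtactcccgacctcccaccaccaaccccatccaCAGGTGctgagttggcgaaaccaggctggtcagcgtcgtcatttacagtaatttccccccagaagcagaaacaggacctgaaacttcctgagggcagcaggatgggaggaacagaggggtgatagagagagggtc
Timp2 (chr11:118355412-118355661, minus strand): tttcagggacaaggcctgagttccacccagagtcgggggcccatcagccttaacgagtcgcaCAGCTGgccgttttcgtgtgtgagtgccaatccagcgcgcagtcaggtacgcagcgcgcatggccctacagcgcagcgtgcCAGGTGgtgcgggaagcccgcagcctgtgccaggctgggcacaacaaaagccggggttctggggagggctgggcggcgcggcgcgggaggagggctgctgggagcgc
Cd22 (chr7:30879029-30879278, minus strand): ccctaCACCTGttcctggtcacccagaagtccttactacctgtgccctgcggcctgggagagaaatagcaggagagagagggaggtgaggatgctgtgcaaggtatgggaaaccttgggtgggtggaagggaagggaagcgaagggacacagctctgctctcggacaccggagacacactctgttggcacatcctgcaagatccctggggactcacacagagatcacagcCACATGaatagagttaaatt
Adam8 (chr7:139992563-139992812, minus strand): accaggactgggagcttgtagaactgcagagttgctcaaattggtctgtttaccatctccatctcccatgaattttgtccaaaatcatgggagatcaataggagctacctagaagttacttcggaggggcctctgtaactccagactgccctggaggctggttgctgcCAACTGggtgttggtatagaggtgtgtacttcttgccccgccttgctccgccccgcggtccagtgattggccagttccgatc
The Sox4 window held 1 E-box, that of C1qb 3, that of Timp2 2, that of Cd22 2 and that of Adam8 1. Among genes called higher, 29 of 35 had windows in the table and 32 of their 41 windows held an E-box. For genes called lower these numbers were 12 of 17 and 11 of 14, and of all 32851 windows 66.2% held it. A match describes these letters and is not evidence of binding.

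In the CD8 DC list, without counting Cd8a, no detected member was 2-fold higher. Of all 21 detected members 7 were 2-fold lower (against 2.93% of all genes tested). The median was -0.49 (from -0.70 to -0.25 under other settings and 0.00 when scaled to the hybridisation controls). Irf8 had 1409 in CD8+CX3CR1+ cells against 4847 in DN cells (3.44-fold lower) and 13285 on the CD8+CX3CR1- array. Besides Rab7b, Gcsam and Naaa, those lower were the scavenger receptor gene Cd36 (57.8 in CD8+CX3CR1+, 165 in DN), and Id2, an inhibitor of E proteins (236 in CD8+CX3CR1+, 566 in DN). Tlr3, which senses viral double-stranded RNA, was lower as well (98.4 in CD8+CX3CR1+, 214 in DN). For these genes the DN array lay between the CD8+CX3CR1+ array and the CD8+CX3CR1- array, on which Cd36 had 1454, Id2 1389 and Tlr3 1338. The CD4+ array lay below the CD8+CX3CR1+ array for Irf8 (617), Naaa (228) and Tlr3 (59.2). It was also below it for Rab7b and Cd36, both under the floor in CD4+ cells. For Id2 (425) and Gcsam (72.2) the CD4+ array lay above the CD8+CX3CR1+ array. Batf3 had 1028 in CD8+CX3CR1+ cells against 1668 in DN cells, and the chemokine receptor gene Xcr1 was under the floor on both.

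In the CD4 and CD11b DC list 1 of 21 detected members was at least 2-fold higher, Irf4 (880.0 in CD8+CX3CR1+, 407 in DN), and 6 were lower. Of all genes tested 2.97% were higher and 2.93% lower by that much. The list median was 0.09, and 0.70 when scaled to the hybridisation controls. Those lower were Dtx1, the adhesion genes Epcam (81.9 in CD8+CX3CR1+, 288 in DN) and Esam, Clec4a2, the interleukin 1 receptor antagonist gene Il1rn (less than 55.7 in CD8+CX3CR1+, 124 in DN) and Tbx21, which encodes T-bet (70.3 in CD8+CX3CR1+, 141 in DN). Esam and Dtx1 are known as marks of Notch2-dependent spleen DCs. Other members differed by less than 2-fold. Csf1r, a growth factor receptor, had 11291 in CD8+CX3CR1+ cells against 9142 in DN cells, and S100a4, a calcium-binding protein, had 8947 in CD8+CX3CR1+ cells against 7578 in DN cells. Sirpb1a, of the SIRP family, had 1224 in CD8+CX3CR1+ cells against 2382 in DN cells, and Ltb, lymphotoxin beta, had 2146 in CD8+CX3CR1+ cells against 1112 in DN cells. Flt3, the receptor that supports DC development, had 3749 in CD8+CX3CR1+ cells against 1477 in DN cells (2.54-fold higher).

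Cell cycle genes had the lowest median of the lists examined. Of 40 detected members 39 were lower on the CD8+CX3CR1+ array, 17 of them by at least 2-fold (2.93% of all genes tested), and none by 4-fold, with a median of -0.84 (-0.86 to -0.57 under other settings). Scaled to the hybridisation controls the median was -0.23, with the median of genes above the floor on both arrays then at 0.60. The proliferation marker gene Mki67 had 1383 in CD8+CX3CR1+ cells against 2879 in DN cells. Top2a, the topoisomerase of dividing cells, had 721 in CD8+CX3CR1+ cells against 1523 in DN cells. Mitotic genes with large differences were the centromere histone gene Cenpa (116 in CD8+CX3CR1+, 378 in DN), the kinesin gene Kif11 (71.6 in CD8+CX3CR1+, 219 in DN) and Ube2c, of the anaphase-promoting complex (155 in CD8+CX3CR1+, 413 in DN). Also in this group was Bub1b, of the spindle checkpoint (355 in CD8+CX3CR1+, 923 in DN). Rrm2, a subunit of ribonucleotide reductase, had 720.4 in CD8+CX3CR1+ cells against 1560.2 in DN cells. The smallest difference was that of Mcm7, a subunit of the replicative helicase, with 4616 in CD8+CX3CR1+ cells against 4903 in DN cells. The member that was higher was Ccne1, a G1/S cyclin (304 in CD8+CX3CR1+, 216 in DN). Mki67, Top2a, Rrm2, Mcm7 and Ccne1 were picked after their values were seen.

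Immediate early and stress genes were lower for 30 of 38 detected members and higher for 7. In all, 9 were 2-fold lower or more (against 2.93% of all genes tested). The median was -0.32 (-0.51 to -0.28 under other settings, and 0.16 when scaled to the hybridisation controls, so the sign of the median rests on the scaling). The median of genes above the floor on both arrays was 0.02, and 0.60 under those controls, so the list lay below it either way. The nuclear receptor gene Nr4a2 had 479 in CD8+CX3CR1+ cells against 1835 in DN cells. The phosphatase gene Dusp2 had 106 in CD8+CX3CR1+ cells against 382 in DN cells, and Atf3, a stress-induced transcription factor, had 158 in CD8+CX3CR1+ cells against 516 in DN cells. Klf2 had 198 in CD8+CX3CR1+ cells against 499 in DN cells, and Btg2, an antiproliferative gene, had 947 in CD8+CX3CR1+ cells against 2247 in DN cells. These genes respond within minutes to cell handling, and their part in other differences was not tested.

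Interferon-stimulated genes were lower for 32 of 39 detected members and higher for 5. Of the 39, 8 were at least 2-fold lower (against 2.93% of all genes tested) and 1 higher (against 2.97%). The median was -0.46 (-0.62 to -0.39 under other settings, 0.02 when scaled to the hybridisation controls). Oas2, an enzyme that makes the activator of RNase L, had 95.6 in CD8+CX3CR1+ cells against 468 in DN cells (4.90-fold lower). Ddx58, the RIG-I sensor of viral RNA, had 74.6 in CD8+CX3CR1+ cells against 293 in DN cells (3.93-fold lower). Rtp4 had 222 in CD8+CX3CR1+ cells against 634 in DN cells, and Ifit3 had 158 in CD8+CX3CR1+ cells against 427 in DN cells. Bst2, which is also a plasmacytoid DC marker, was the member at least 2-fold higher.

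**Figure D4:**
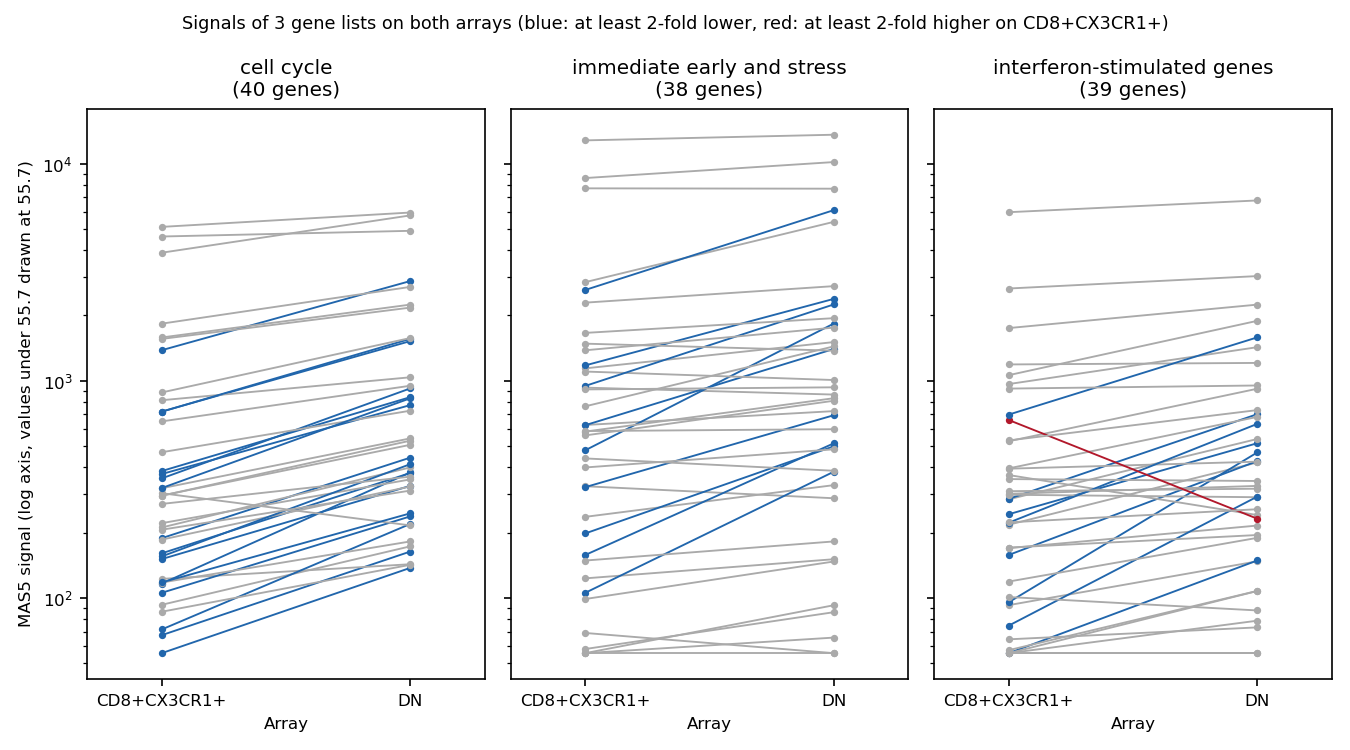
MAS5 signals (vertical log axis) of the detected genes of 3 lists (cell cycle, immediate early and stress, interferon-stimulated) on the CD8+CX3CR1+ array (left of each panel) and the DN array (right), 1 line a gene, blue where lower and red where higher by 2-fold or more on the CD8+CX3CR1+ array. Of the cell cycle lines 39 of 40 run upwards to the DN array.

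Receptors for chemokines and their ligands differed by gene. Ccr7, which guides DCs to T cell zones, had 359.8 in CD8+CX3CR1+ cells against 1015 in DN cells (2.82-fold lower). Ccr6, the receptor for CCL20, had 343 in CD8+CX3CR1+ cells against 957 in DN cells (2.79-fold lower). Cxcr3, for interferon-induced chemokines, had 122 in CD8+CX3CR1+ cells against 311 in DN cells (2.55-fold lower). The ligand genes Ccl3 (less than 55.7 in CD8+CX3CR1+, 163 in DN) and Ccl4 (68 in CD8+CX3CR1+, 142 in DN) were lower by 2-fold or more. The median over 13 detected ligands was -0.46 (-0.57 to -0.07, and 0.06 when scaled to the hybridisation controls). Of 23 costimulation and maturation genes 5 were at least 2-fold lower (against 2.93% of all genes tested) and 1 higher (against 2.97%). By any amount 12 were higher and 11 lower, with a median of 0.07 (0.68 when scaled to the hybridisation controls). Among those lower by 2-fold were Cd86, a ligand of CD28 (312 in CD8+CX3CR1+, 1071 in DN), Havcr2, the TIM-3 receptor (558 in CD8+CX3CR1+, 1141 in DN), and Socs2 (132 in CD8+CX3CR1+, 295 in DN). Marcksl1 was 2.09-fold higher (1589 in CD8+CX3CR1+, 758 in DN).

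Among Toll-like receptors, Tlr5, which senses flagellin, had 262 in CD8+CX3CR1+ cells against 85.4 in DN cells (3.06-fold higher). Tlr4, the endotoxin receptor, was under the floor in CD8+CX3CR1+ cells and had 124 on the DN array. Cd33, a sialic acid-binding receptor, had 488 in CD8+CX3CR1+ cells against 146 in DN cells (3.34-fold higher). Fcgr3, an activating Fc receptor, had 193 in CD8+CX3CR1+ cells against 63.4 in DN cells (3.05-fold higher). In the list of S100 proteins, annexins, galectins and vimentin 6 of 25 detected members were at least 2-fold lower (against 2.93% of all genes tested) and none higher. Its median was -0.18, and 0.27 when scaled to the hybridisation controls, so the sign of the median rests on the scaling. For genes above the floor on both arrays the median was 0.02, and 0.60 under those controls. Anxa1 was the annexin past 2-fold, and Anxa5 had 4361 in CD8+CX3CR1+ cells against 3326 in DN cells. Anxa1, an anti-inflammatory annexin, had 733 in CD8+CX3CR1+ cells against 2844 in DN cells (3.88-fold lower), and S100a13 had 92.2 in CD8+CX3CR1+ cells against 363 in DN cells (3.94-fold lower). S100a10 had 153 in CD8+CX3CR1+ cells against 378 in DN cells, and the scaffold gene Ahnak had 598 in CD8+CX3CR1+ cells against 1320.0 in DN cells. Of the genes for actin and migration, Rgs1, a regulator of chemokine receptor signalling, had 625 in CD8+CX3CR1+ cells against 2458 in DN cells (3.93-fold lower). Actn1, alpha-actinin, had 714 in CD8+CX3CR1+ cells against 1891 in DN cells (2.65-fold lower).

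**Figure D5:**
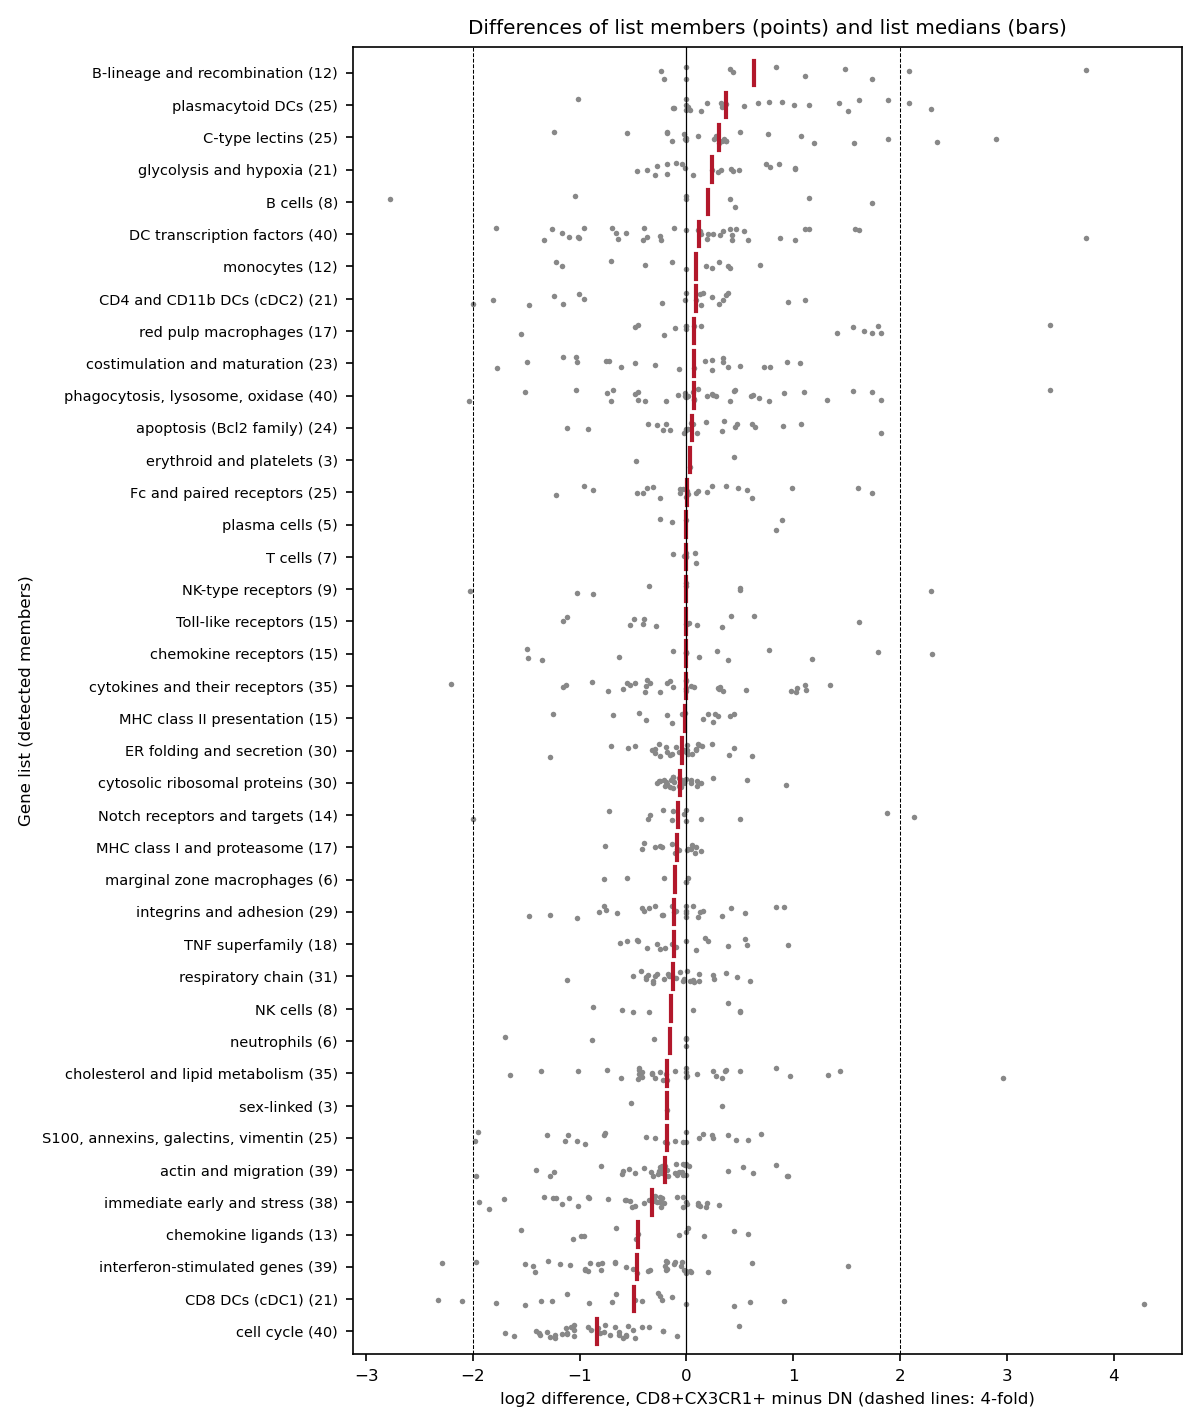
Log2 difference (CD8+CX3CR1+ minus DN, horizontal axis, dashed lines at 4-fold) of the detected members of 40 gene lists, each gene a point and each list's median a bar, with the number of detected members in brackets. Medians run from 0.64 for B-lineage and recombination genes to -0.84 for cell cycle genes.

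Antigen presentation genes were close to level. Of 15 genes of MHC class II presentation 1 was at least 2-fold lower (against 2.93% of all genes tested), and the median was -0.01. It was the class II chain gene H2-Eb2 (414 in CD8+CX3CR1+, 986 in DN). None of 17 genes of MHC class I and the proteasome was 2-fold apart, the furthest being the immunoproteasome gene Psmb8 (1529.8 in CD8+CX3CR1+, 2597 in DN), and their median was -0.09. These medians were 0.59 for class II and 0.51 for class I when scaled to the hybridisation controls, against 0.60 for all genes above the floor on both arrays. Of the lists for T cells, NK cells, erythroid cells and platelets, marginal zone macrophages and plasma cells no detected member was 2-fold apart. In the neutrophil list the protease gene Mmp9 (less than 55.7 in CD8+CX3CR1+, 181 in DN) was 1 of 6. In the monocyte list Treml4 (196 in CD8+CX3CR1+, 456 in DN) and Nr4a1 (624 in CD8+CX3CR1+, 1402 in DN) were 2 of 12. These 3 genes were lower on the CD8+CX3CR1+ array. The T cell genes Cd3e and Cd3d had 65.8 and 59.1 on the CD8+CX3CR1+ array, with 66.8 and less than 55.7 on the DN array.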

How the data were processed

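Total RNA of sorted spleen DCs was hybridised to 4 Affymetrix arrays, 1 per subset, and subsets were taken from sample titles. The deposited values are signal intensities that the authors computed with MAS5, per the submitters' processing notes, on a linear scale. The MAS5 version and its detection calls were not given in the sources used here. In the deposited values the trimmed mean (2% left out at each end) was 150.0 on every array.

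From these intensities, probe sets were named through the platform annotation: of 45101 probe sets 64 were controls, 34945 had 1 symbol, 932 several and 9160 none. Where a gene had several probe sets, the one brightest on average (mean log2 over all 4 arrays) stood for it. Signals were floored at 55.7 and compared as log2 differences, CD8+CX3CR1+ minus DN, and the code was tested on simulated data. Named are Cd8a, Cx3cr1, Cd4, Itgax, every gene called at 4-fold that has an established symbol, and the 5 members, at most, that differed most in each list. Any other gene was picked after its value was seen. The comparison and the gene lists were chosen with earlier results of these data known, and the endothelial and stromal list after these values were seen. Alternatives covered the normalization, the floor and the choice of probe set. Probe sets with several symbols or none were left out of gene counts.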

Additional observations from a re-analysis of the deposited data

Results flagged for a closer look

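Probe sets that carry no gene symbol, or several, lay outside the gene counts, and 8 of them were at least 4-fold apart. Of these, 7 were higher and 1 was lower on the CD8+CX3CR1+ array. The brightest of the higher ones had 1870.2 in CD8+CX3CR1+ cells and 407 in DN cells, and the lower one had 296 in CD8+CX3CR1+ cells and 1196 in DN cells. No gene is assigned to them here.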

How the results depend on the processing

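With 1 array per subset no replicate could be left out, and no paired analysis was possible because each subset has 1 array. Against 35 genes higher and 17 lower, the counts were 57 and 31 with the floor at the 75th percentile of the background probe sets. With the floor at the 95th percentile, 23 genes were higher. Without a floor the counts were 1463 and 1351, and with the mean over all probe sets of a gene 18 and 8. Scaling to the hybridisation controls, added after the data were seen, gave 98 and 2. Fewer genes pass a higher floor by construction. Without a floor all 18193 named genes counted as detected. The mean takes in probe sets under the floor on both arrays, which add a difference of 0. How far each of these moved the counts, and the cause of the other shifts, was not tested. Cd151 had a log2 difference of -0.13 when probe sets of the kinds that can match several transcripts were left out, and Zfp771 -0.16 when its probe set was chosen on the CD8+CX3CR1+ and DN arrays alone. Quantile and median scaling, the omission of those probe sets and the choice of probe set on the pair of arrays kept both counts within 1.5 times. Called under each of the 8 settings that gave them a value were 14 of 35 higher and 5 of 17 lower genes. Those 8 leave out the scaling to the hybridisation controls, under which all 35 and 2 of the 17 were called. That scaling raises all differences above the floor, so its counts do not compare the stability of higher and lower calls. No p-value was available under any setting, and signals near the floor limit the smallest differences that can be read.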
